A study of Mus musculus with 6 samples.

Results

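The 10 genes of bone morphogenetic protein (BMP) signaling described here were measured in the dental epithelium of the mouse mandibular first molar (M1) at PN2.5, postnatal day 2.5: the ligands *Bmp2*, *Bmp3*, *Bmp4*, *Bmp5*, *Bmp6* and *Bmp7*, the type I receptors *Bmpr1a* and *Bmpr1b*, and the antagonists *Nog* and *Fst*. They were taken by gene name from the expression table of the study, where they are 10 of 55487 genes. They were not picked by their values, but earlier results of these data were known when they were chosen. The study compared 3 libraries from Wnt10aflox/flox mice (control) with 3 from K14-Cre;Wnt10aflox/flox mice (cKO), to ask how gene expression at the start of root furcation formation depends on epithelial *Wnt10a*. Both groups carry the floxed *Wnt10a* gene, and the cKO group also carries Cre recombinase under the keratin 14 promoter, which acts in keratin 14 positive epithelium and not in the mesenchyme; the control genotype names no Cre. Each library is a pool of dental epithelium, from 4 molars by the series' design text and from another number by the study's methods. The values are transcript abundances scaled by transcript length and by library total (TPM), so that levels can be set beside each other between genes. Sequencing depth cannot be read from TPM, and no counting error can be attached to the values below.

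BMPs are secreted dimers of the TGF-beta superfamily that bind pairs of type I and type II serine/threonine kinase receptors on the cell surface. The active receptors phosphorylate Smad1, Smad5 and Smad9, which enter the nucleus with Smad4 and switch on target genes such as the *Id* genes. Noggin (*Nog*) binds BMPs outside the cell and keeps them from their receptors, while follistatin (*Fst*) binds activins most tightly and several BMPs as well. In the tooth, BMPs pass between epithelium and mesenchyme from the first placode to the root, and *Bmp4* is among the best known of these signals.

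The deleted gene was lower in the cKO libraries. *Wnt10a* had 56.0, 51.2 and 57.9 TPM in the control libraries against 22.7, 21.8 and 32.2 TPM in the cKO libraries, without overlap (log2 fold change -1.10, SE 0.19, limma adjusted p = 0.747 over all genes). Dental epithelium was present by its markers, with all 10 above the level tested, but 9 of 10 mesenchyme and odontoblast markers were above it too, with a summed level of 3506 to 6939 TPM in control against 4459 to 5008 TPM in cKO libraries. The 5 skeletal muscle markers each had a mean below 1 TPM. A BMP transcript in these pools therefore need not come from an epithelial cell, and in such bulk samples fewer cells of a type and less RNA per cell cannot be told apart. The enamel matrix genes *Amelx* and *Ambn* together took 19.7% to 23.9% of the TPM of the control libraries and 19.1%, 9.52% and 20.7% of cKO libraries 1, 2 and 3, so that cKO library 2 stood apart in enamel gene content.

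The starts of 3 members are shown, since the type I receptors *Bmpr1a* and *Bmpr1b* differ widely in level, as described below, and *Bmp4* is the highest ligand. The sequences are the bases before a RefSeq transcription start on GRCm38.p6, read 5′ to 3′ on the strand of the gene, and capitals mark every CG dinucleotide. The *Bmp4* window is chr14:46390670-46390919 on the minus strand and holds no annotated exon. The *Bmpr1a* stretch is chr14:34502688-34502796 on the minus strand, the 109 bases of a 250-base window that precede an annotated exon of the gene, in an intron of a longer *Bmpr1a* transcript. The *Bmpr1b* window is chr3:141982265-141982514 on the minus strand, 1 of 3 RefSeq windows of this gene, and lies in an intron of longer *Bmpr1b* transcripts.
Bmp4: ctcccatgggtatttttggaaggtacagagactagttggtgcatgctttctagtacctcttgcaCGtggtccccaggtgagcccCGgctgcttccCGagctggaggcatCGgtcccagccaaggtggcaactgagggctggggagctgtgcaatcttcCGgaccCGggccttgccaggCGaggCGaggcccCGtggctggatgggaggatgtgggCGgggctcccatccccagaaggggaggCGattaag
Bmpr1a: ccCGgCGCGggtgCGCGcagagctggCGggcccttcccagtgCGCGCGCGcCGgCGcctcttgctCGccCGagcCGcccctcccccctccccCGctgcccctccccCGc
Bmpr1b: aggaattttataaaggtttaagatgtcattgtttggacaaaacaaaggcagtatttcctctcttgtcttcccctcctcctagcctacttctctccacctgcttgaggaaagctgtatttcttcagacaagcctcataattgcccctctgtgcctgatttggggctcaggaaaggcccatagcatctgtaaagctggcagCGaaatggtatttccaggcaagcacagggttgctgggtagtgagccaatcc
Over the full 250 bases the *Bmpr1a* window held 36 CG dinucleotides, more than 97.4% of the 32851 promoter windows of the RefSeq table, whose median was 6. The *Bmp4* window held 11, with fewer in 64.4% of windows, and the printed *Bmpr1b* window held 1, with fewer in 7.9%. The other *Bmpr1b* windows held 5 each, that of *Bmp5* held 4 and that of *Bmp6*, which lies wholly in an annotated *Bmp6* exon, held 22. CTTTG, the core letters of the TCF/LEF motif through which Wnt signaling acts on genes, was searched on both strands and was present in 48.6% of all windows. It was found in none of the *Bmp4*, *Bmp5*, *Bmp6* and *Bmpr1a* windows and in each of the *Bmpr1b* windows, which is a description of these letters and says nothing of a factor's binding. The *Bmpr1b* windows not printed overlap each other and share a match, so the windows do not each hold a separate site. Of these, 1 has 103 bases in annotated *Bmpr1b* exons. *Bmp2*, *Bmp3*, *Bmp7*, *Nog* and *Fst* had no entry.

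*Bmp4* and *Bmp7* were the leading ligands among the 6 member ligands in every library. Ordered by mean TPM over the 6 libraries, *Bmp4* stood first with 69.8 TPM, followed by *Bmp7* with 46.3, *Bmpr1a* with 31.6, *Bmp5* with 10.3, *Bmp2* with 9.66, *Bmp3* with 5.11, *Nog* with 4.18, *Fst* with 3.96, *Bmp6* with 0.453 and *Bmpr1b* with 0.0183 TPM. The mean *Bmp4* level exceeded that of 89.5% of the 13719 genes whose mean reached 1 TPM, which are the genes tested here, and that of *Fst* exceeded 24.2%. Neighbours in this order were compared within each library on log2(TPM + 1) by an exact two-sided sign-flip test. *Bmp4* was above *Bmp7*, *Bmpr1a* above *Bmp5*, *Bmp2* above *Bmp3*, *Fst* above *Bmp6* and *Bmp6* above *Bmpr1b* in 6 of 6 libraries, each at the smallest p this test can give with 6 libraries and at an exact p of 0.0563 when adjusted over the 9 neighbour pairs, so that no pair passes 0.05 after adjustment. The other neighbours did not differ beyond their spread. *Bmp7* was above *Bmpr1a* in 5 of 6 libraries (exact p = 0.125, adjusted 0.188), *Bmp5* above *Bmp2* in 3 (p = 0.562, adjusted 0.633), *Bmp3* above *Nog* in 3 (p = 0.5, adjusted 0.633) and *Nog* above *Fst* in 1 (p = 1.0).

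**Figure D1:**
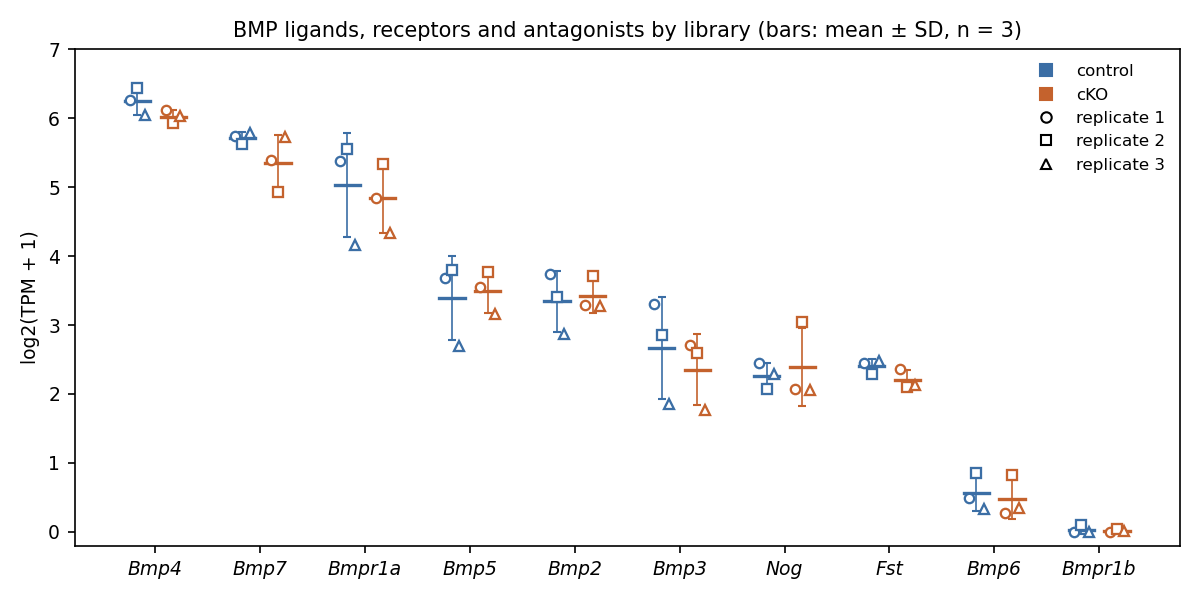
Level of each of the 10 genes as log2(TPM + 1) in the 3 control (blue) and 3 cKO (orange) libraries, with the group mean and SD (n = 3) as bars and the replicate number as the point's shape. The control and cKO points overlap for every gene, and *Bmp4* at the left lies highest while *Bmpr1b* at the right lies at or near 0.

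Among the ligands, *Bmp4* encodes the BMP most closely related to *Bmp2* and lies on chromosome 14 of GRCm38 (chr14:46383520-46390669, minus strand). It had 75.5, 85.9 and 64.9 TPM in control libraries 1, 2 and 3 and 68.4, 59.7 and 64.2 TPM in cKO libraries 1, 2 and 3. The lowest control library lay within the cKO range, so the groups overlapped. The means were 75.4 ± 10.5 and 64.1 ± 4.35 TPM (SD, n = 3), a log2 fold change of -0.22 (SE 0.16, 95% interval -0.60 to 0.15, limma p = 0.204, exact permutation p = 0.2). Both p are unadjusted, as are those given in this way below, the permutation test is two-sided, and with 3 against 3 libraries it cannot go below 0.1.

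*Bmp7* (chr2:172868012-172940321, minus strand) belongs with *Bmp5* and *Bmp6* to another branch of the family and is known from eye, kidney and tooth development. It stood at 52.4, 48.6 and 54.0 TPM in the control libraries against 41.1, 29.5 and 52.2 TPM in the cKO libraries. cKO libraries 1 and 2 lay below all 3 control libraries and cKO library 3 lay among them. The cKO mean of 40.9 ± 11.4 TPM was 20.8% below the control mean of 51.7 ± 2.79 TPM (SD, n = 3), and the log2 fold change was -0.36 (SE 0.22, 95% interval -0.89 to 0.16, limma p = 0.143, exact permutation p = 0.2). This was the lowest p of the 8 members tested. Without cKO library 3 the log2 fold change was -0.55 with an unadjusted p of 0.0343, and without cKO library 2 it was -0.15 with an unadjusted p of 0.456, so that the size of the *Bmp7* difference rests on single cKO libraries.

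*Bmp2* (chr2:133552159-133562885, plus strand), which is known for its part in odontoblast and bone differentiation, had 12.4, 9.61 and 6.34 TPM in control against 8.75, 12.2 and 8.68 TPM in cKO libraries. The control libraries spanned the whole cKO range. The difference was 0.08 on the log2 scale (SE 0.27, 95% interval -0.56 to 0.72, limma p = 0.771, exact permutation p = 1.0), and its sign turned without cKO library 2 (-0.06) or control library 3 (-0.15).

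*Bmp5* (chr9:75775364-75900310, plus strand), known from skeletal growth, had, as *Bmp2* did, nearly equal group means. It stood at 11.9, 12.9 and 5.47 TPM in control against 10.8, 12.6 and 7.90 TPM in cKO libraries. In both groups library 3 was the lowest, and the groups overlapped. The log2 fold change was 0.10 (SE 0.34, 95% interval -0.69 to 0.89, limma p = 0.775, exact permutation p = 0.9), and it too turned without cKO library 2 (-0.04) or control library 3 (-0.25).

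*Bmp3* (chr5:98854415-98884396, plus strand) is the family's atypical ligand, which restrains rather than induces bone formation. It had 8.84, 6.21 and 2.63 TPM in control against 5.56, 5.02 and 2.39 TPM in cKO libraries. The spread within groups, an SD of 0.64 on log2(TPM + 1), was, with that of *Bmpr1a* (0.64), the widest of the 8 tested members. On this scale the spread of a gene as low as *Bmp3* comes out too small. The log2 fold change of -0.31 was smaller than its SE of 0.43 (95% interval -1.32 to 0.69, limma p = 0.487, exact permutation p = 0.4). It came to -0.00 without control library 1, -0.02 without cKO library 3 and -0.72 without control library 3.

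*Bmp6* (chr13:38345107-38500302, plus strand), known for the control of iron balance from the liver, was the lowest of the 6 member ligands and fell under the level tested. Its values were 0.41, 0.80 and 0.26 TPM in control against 0.21, 0.77 and 0.27 TPM in cKO libraries (exact two-sided permutation p = 0.6). Its exons overlap those of *Txndc5* on the opposite strand, which had 115 to 156 TPM. The sources used here do not state that reads were counted by strand, so at this low level the value of *Bmp6* is uncertain.

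**Figure D2:**
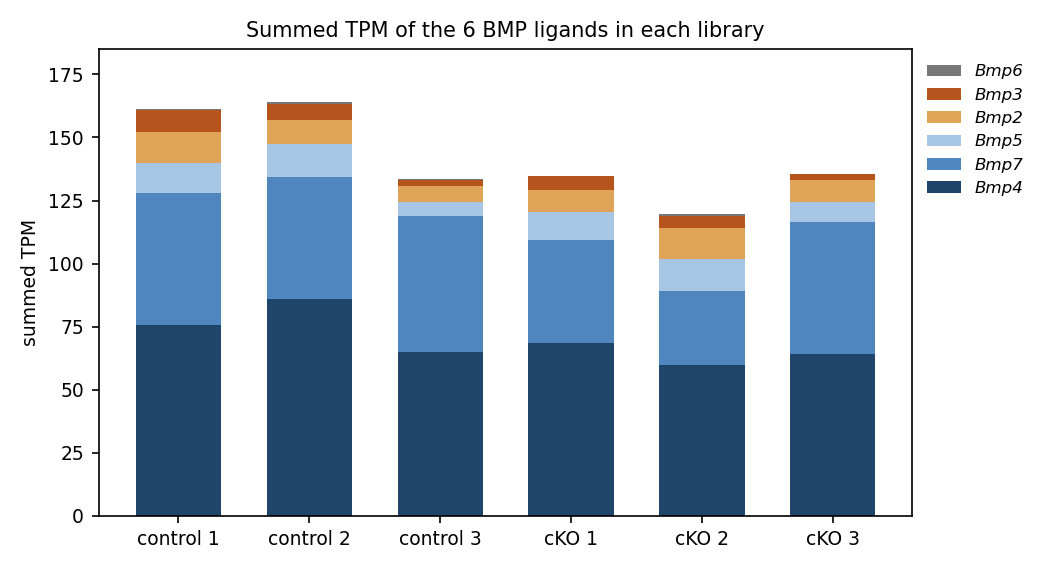
Summed TPM of the 6 ligands in each of the 6 libraries, stacked by gene, with the axis starting at 0. *Bmp4* and *Bmp7*, the lower bands, make up 74.5% to 89.0% of each bar, and the bars of control library 3 and of the cKO libraries are shorter than those of control libraries 1 and 2.

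The total over the 6 member ligands, as the plot of summed TPM shows, was 161, 164 and 134 TPM in control against 135, 120 and 136 TPM in cKO libraries. Other ligand genes, described below, are not part of it. Control library 3 lay below cKO libraries 1 and 3. The means were 153 ± 16.9 and 130 ± 8.95 TPM (SD, n = 3), a difference that an exact two-sided permutation test did not separate (p = 0.3). The libraries were also rescaled over the protein-coding genes alone, without *Amelx* and *Ambn*. The sums were then 198.7 to 234.2 in control and 155.3 to 198.2 in cKO libraries, just without overlap (exact permutation p = 0.1). This rescaling moved genes in general toward lower cKO values. The median log2 fold change of all tested genes was -0.12 with it and -0.07 as fitted. The composition of this total did not differ beyond its spread: *Bmp4* supplied 49.2% ± 2.87 of it in control and 49.3% ± 1.77 in cKO libraries, and *Bmp7* supplied 34.2% ± 5.61 and 31.2% ± 6.96 (exact permutation p = 1.0 and 0.6). *Bmp4* and *Bmp2*, the closest pair of ligands, differed by 6.07, 8.94 and 10.2 times in the control and by 7.81, 4.91 and 7.39 times in the cKO libraries. On the log2 scale this *Bmp2* to *Bmp4* ratio was higher by 0.32 in the cKO group, with overlapping groups (exact permutation p = 0.4), and it was 0.17 without control library 3, 0.54 without control library 1 and 0.11 without cKO library 2.

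Of the type I receptors, *Bmpr1a* was well expressed and *Bmpr1b* was at or near 0. *Bmpr1a* (chr14:34410734-34503341, minus strand) encodes the widely expressed type I receptor for BMP2 and BMP4. It had 40.5, 45.8 and 16.9 TPM in control against 27.8, 39.4 and 19.2 TPM in cKO libraries. Library 3 was the lowest of each group, and the difference between groups (log2 fold change -0.19, SE 0.41, 95% interval -1.16 to 0.78, limma p = 0.660, exact permutation p = 0.7) was small beside that spread. The sign turned without cKO library 3 (0.06) or control library 2 (0.07).

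*Bmpr1b* (chr3:141837136-142169425, minus strand), known for its part in cartilage condensation in the digits, was listed at 0, 0.07 and 0 TPM in control and at 0, 0.03 and 0.01 TPM in cKO libraries. It was not tested, and no ratio of *Bmpr1a* to *Bmpr1b* was formed, since 3 of the libraries list *Bmpr1b* at 0.

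The 2 member antagonists were low beside the ligand sum. *Nog* (chr11:89300638-89302332, minus strand) had 4.44, 3.19 and 3.87 TPM in control against 3.20, 7.23 and 3.15 TPM in cKO libraries. cKO library 2 was the highest of all 6, and the other cKO libraries lay at or just below the low end of the control range. The log2 fold change was 0.12 (SE 0.32, 95% interval -0.63 to 0.88, limma p = 0.711, exact permutation p = 0.9), and without cKO library 2 it was -0.20.

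*Fst* (chr13:114452290-114458951, minus strand) had 4.48, 3.89 and 4.55 TPM in control against 4.15, 3.30 and 3.37 TPM in cKO libraries. Its SD within the groups, 0.12 on log2(TPM + 1), was the lowest of the tested members. On this scale the spread of weakly expressed genes such as *Fst* comes out too small. Of the cKO libraries, 1 lay within the control range. The log2 fold change was -0.21 (SE 0.21, 95% interval -0.69 to 0.28, limma p = 0.349, exact permutation p = 0.2).

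*Nog* and *Fst* together gave 8.92, 7.08 and 8.42 TPM in control against 7.35, 10.5 and 6.52 TPM in cKO libraries (means 8.14 ± 0.951 and 8.13 ± 2.12 TPM, SD, n = 3, exact permutation p = 1.0). The ligand sum was 18.1, 23.2 and 15.9 times this antagonist sum in the control libraries and 18.3, 11.4 and 20.8 times in the cKO libraries. The lowest ratio was that of cKO library 2, the library with the lowest share of *Amelx* and *Ambn*. The groups differed by -0.21 in the log2 ratio (exact permutation p = 0.7), and without cKO library 2 by 0.05.

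*Nog* and *Fst* were not the most abundant extracellular modulators in this tissue. *Fstl1*, a secreted follistatin-like protein that can dampen BMP4 signaling, had 205, 170 and 145 TPM in control against 128, 126 and 146 TPM in cKO libraries (log2 fold change -0.36, limma p = 0.0702, exact permutation p = 0.2). *Sostdc1* (also called ectodin or Wise), which binds BMPs and also acts on Wnt signaling and limits tooth number and cusp pattern, had 87.9, 83.9 and 93.8 TPM in control against 86.3, 103 and 93.0 TPM in cKO libraries. The *Sostdc1* level overlapped between groups (log2 fold change 0.09, 95% interval -0.25 to 0.42, limma p = 0.566, exact permutation p = 0.5). The 10 tested of 15 other modulators split into 5 above and 5 below 0 in log2 fold change, with a median of 0.03. *Sostdc1* was 9.85, 11.8 and 11.1 times the sum of *Nog* and *Fst* in the control and 11.7, 9.80 and 14.3 times in the cKO libraries. With *Sostdc1* added to that sum, the mean log2 ratio of ligands to antagonists was 0.66 in control and 0.35 in cKO libraries. Without it the means were 4.23 and 4.03.

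**Figure D3:**
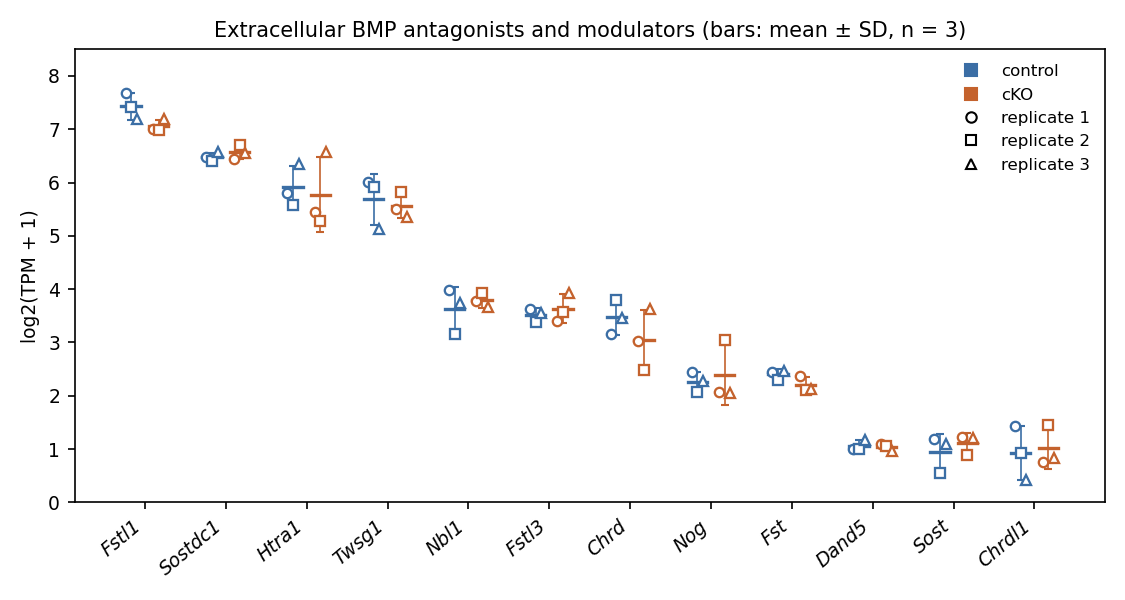
Level of *Nog*, *Fst* and the 10 other extracellular antagonists and modulators of the pathway that reached a mean of 1 TPM, as log2(TPM + 1), by library (control blue, cKO orange, bars mean ± SD, n = 3). *Fstl1* and *Sostdc1* stand at the left, well above *Nog* and *Fst*, and the 2 groups overlap for each gene.

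None of the 10 members was called in the comparison of cKO with control. The 8 members whose mean reached 1 TPM entered the limma fit on log2(TPM + 1), where changes of weakly expressed genes come out too small, with Benjamini-Hochberg adjustment over all 13719 genes. No member had an adjusted p below 0.05 (adjusted p = 1.00 for all 8), against 0.0146% of all tested genes, that is 2 genes. At an unadjusted p below 0.05 there was also no member. Under the criteria of the study's methods, an unadjusted p below 0.05 and a mean more than 20% from control, 0 of 8 were called, where 4.02% of all tested genes were, 1.55% higher and 2.47% lower in cKO. No member of the 10 had groups without overlap, where 9.64% of all tested genes did, 3.51% with the cKO libraries higher and 6.13% with them lower. At such background shares, 0 of 8 or 0 of 10 is not a result that sets these genes apart. The intervals give what remains possible: the 95% interval for *Bmp4* reached from -0.60 to 0.15 and that for *Bmp3* from -1.32 to 0.69 on the log2 scale, so that the data do not show the members to be equal in the groups.

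Of the 8 members tested, 3 had a log2 fold change above 0 (*Bmp2*, *Bmp5* and *Nog*) and 5 below, with a median of -0.20. Over all tested genes 5453 were above and 8266 below 0, with a median of -0.07. The change also varied with transcript length: the Spearman correlation of log2 fold change with the length of the longest transcript was -0.48 over 12188 genes that code for proteins, a correlation across genes and not over independent replicates, with a median of 0.09 among the shortest 25% of them and -0.24 among the longest 25%. With each library corrected for length and GC content, the median of all tested genes was 0.00 and that of the members -0.08. *Bmp3* and *Bmpr1a*, the members with the longest transcripts (6609 and 5956 bases), moved from -0.31 to -0.12 and from -0.19 to -0.03, and their SE fell from 0.43 to 0.28 and from 0.41 to 0.16. *Bmp7* moved from -0.36 to -0.21, while *Bmp4* (-0.21) and *Fst* (-0.22) hardly moved. The corrected interval for *Bmpr1a* was -0.40 to 0.33 and that for *Bmp5* -0.22 to 0.49. The direction in which all genes were called also moved with scaling: 213 higher and 339 lower under the study's criteria as given above, 323 and 318 after quantile normalization, 312 and 299 after median-ratio scaling, 334 and 285 after the length and GC correction, and 104 and 651 after rescaling without *Amelx* and *Ambn*. Under each of these scalings 0 members were called.

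**Figure D4:**
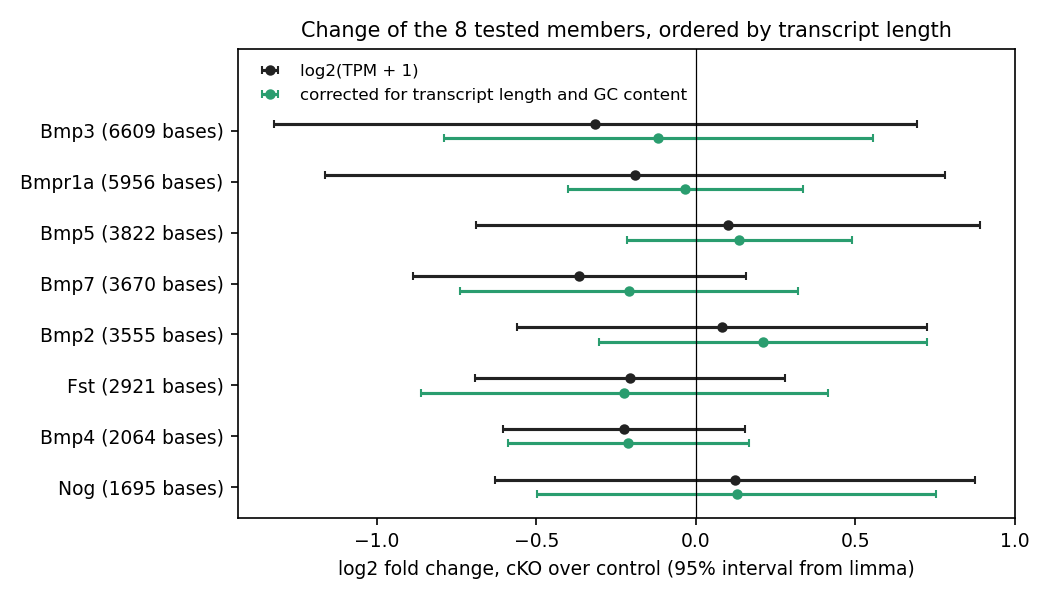
Log2 fold change of cKO over control for the 8 tested members with 95% intervals from limma, ordered from the longest transcript at the top to the shortest at the bottom, as fitted (black) and with length and GC content corrected for (green). Each interval includes 0, and the correction narrows those of *Bmp3*, *Bmpr1a* and *Bmp5* and widens that of *Fst*.

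The library with the lowest or highest value of its group is given here for the 8 tested members. The same was not counted over all tested genes, so these counts do not set the members apart. Control library 3 was the lowest control library for 5 of the 8 tested members (*Bmp2*, *Bmp3*, *Bmp4*, *Bmp5* and *Bmpr1a*), and cKO library 3 was the lowest cKO library for 5 (*Bmp2*, *Bmp3*, *Bmp5*, *Bmpr1a* and *Nog*). Both were the highest of their group for *Bmp7*. cKO library 2 was the lowest cKO library for *Bmp4*, *Bmp7* and *Fst* and the highest for *Bmp2*, *Bmp5*, *Bmpr1a* and *Nog*. The share of *Amelx* and *Ambn* was highest in control library 3 (23.9%) and lowest in cKO library 2 (9.52%). Library 3 of each group had the fewest genes above 0 TPM (20722 in control and 20185 in cKO), against 21686 to 23203 elsewhere. The part of either in these patterns was not tested. With 1 library left out, groups without overlap are more frequent among all tested genes too. Without control library 3 they were found for 3 of the 10 members (*Bmp3*, *Bmp4* and *Bmpr1a*) and 27.6% of all tested genes, and without cKO library 3 for 1 member (*Bmp7*) and 23.7%. Without control library 2 the count was 2 (*Bmp7* and *Fst*) beside 16.2%, without cKO library 1 it was 2 (*Bmp4* and *Fst*) beside 13.5%, and it was 0 without control library 1 (14.8%) or cKO library 2 (16.9%).

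The other genes of the pathway were taken from a list of 62, of which 44 were tested. Of these, 17 had a log2 fold change above 0 and 27 below, with a median of -0.04 against -0.07 for all tested genes. None passed the adjusted test, 2 had an unadjusted p below 0.05 and met the criteria of the study, *Id1* higher and *Acvrl1* lower, and 2 had no overlap between groups, *Acvrl1* and *Smurf1*, both lower. That is 1 of 44 in each direction under the criteria, close to the shares of all genes given above. Leaving out a library moved this count between 0 (without control library 1, cKO library 1 or cKO library 2) and 9 (3 higher and 6 lower, without cKO library 3), with 6 lower and none higher without control library 3. The calls over all tested genes moved too. They were 231 of 13723, 195 of 13725 and 278 of 13594 in the settings with a count of 0. Without cKO library 3 they were 932 of 13861 (335 higher, 597 lower). Without control library 3 they were 1152 of 13823 (222 higher, 930 lower).

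Beyond the members, the ligand genes with the highest mean were *Bmp8a*, 33.9 ± 11.03 TPM in control against 27.6 ± 6.61 TPM in cKO libraries, and *Inha*, the inhibin alpha subunit, 23.8 ± 9.04 and 23.0 ± 6.42 TPM (SD, n = 3). Neither is part of the ligand sum above, and in cKO library 2 *Bmp8a* was above *Bmp7* (34.15 against 29.47 TPM). Only 6 of 16 other ligand genes were tested, and all 6 had a log2 fold change below 0, with none past the adjusted test or the criteria. After the length and GC correction 5 of them were below 0.

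Among the other receptors, the 6 tested of 7 listed were also below 0, with a median of -0.44. After the length and GC correction the median was -0.20, with *Acvr1* (0.03) and *Acvr2a* (0.02) above 0. *Acvr1*, the type I receptor ALK2 that pairs with BMP7 among others, had 40.5, 40.2 and 34.1 TPM in control against 35.1, 35.1 and 42.4 TPM in cKO libraries (log2 fold change -0.03, limma p = 0.860, exact permutation p = 1.0). *Acvr1b*, an activin type I receptor, had 31.7, 44.7 and 36.3 TPM and 21.4, 25.6 and 34.8 TPM (log2 fold change -0.46, limma p = 0.0807, exact permutation p = 0.2). The type II receptor *Bmpr2*, named after its values were seen, had 24.6, 28.9 and 9.42 TPM in control against 15.9, 20.4 and 8.25 TPM in cKO libraries, with library 3 lowest in each group as for *Bmpr1a*.

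*Acvrl1* encodes ALK1, a type I receptor for BMP9 and BMP10 known from endothelial cells. It had 4.37, 3.61 and 5.92 TPM in control against 2.09, 1.95 and 3.01 TPM in cKO libraries, without overlap. The log2 fold change was -0.74 (SE 0.26, 95% interval -1.35 to -0.14, limma p = 0.0226, exact permutation p = 0.1) and -0.59 after the length and GC correction. With 1 library left out the log2 fold change stayed between -0.88 and -0.58, and the unadjusted p rose above 0.05 without control library 1 (0.0564), control library 3 (0.0745), cKO library 1 (0.0684) or cKO library 2 (0.0686), as it did after quantile normalization (0.103) and median-ratio scaling (0.0624). The 5 endothelial markers, all of them tested and all with a log2 fold change below 0, had a summed level of 60.2 to 95.5 TPM in control against 47.7 to 67.3 TPM in cKO libraries (exact permutation p = 0.2), with *Cdh5* and *Tek* lower under the study's criteria. The blood and immune markers summed to 788 to 1030 TPM in control against 617 to 753 TPM in cKO libraries. The part of these cells in the *Acvrl1* difference was not tested.

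Of the co-receptors and the decoy receptor, *Bambi*, a receptor-like protein without a kinase that blocks signaling, had 82.6, 101 and 81.1 TPM in control against 82.4, 113 and 87.5 TPM in cKO libraries (log2 fold change 0.09, limma p = 0.642, exact permutation p = 0.6). *Rgma*, a co-receptor, had 21.5, 17.7 and 22.2 TPM and 11.2, 9.61 and 24.5 TPM, with cKO library 3 at the control level and the others below it (log2 fold change -0.52, limma p = 0.166, exact permutation p = 0.4). *Bmp1*, a protease that cleaves the antagonist chordin, and its relative *Tll1* had log2 fold changes of -0.20 and -0.40 (exact permutation p = 0.2 and 0.4). Inside the cell, 5 of the 9 Smads and their regulators had a log2 fold change above 0, with a median of 0.02, and *Smad5* had a log2 fold change of -0.33 and *Smad4* of 0.02 (exact permutation p = 0.2 and 1.0). *Smurf1*, a ubiquitin ligase that marks Smad1 and Smad5 for breakdown, had 18.1, 18.5 and 17.4 TPM in control against 9.82, 14.1 and 16.8 TPM in cKO libraries, without overlap but with a limma p of 0.102 (log2 fold change -0.41). The difference was -0.15 after the length and GC correction and -0.21 without cKO library 1.

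Among the transcriptional targets, 6 of 8 had a log2 fold change above 0, with a median of 0.11, and *Id1* was the one that met the criteria. *Id1* and *Id3* encode inhibitors of basic helix-loop-helix factors and are direct Smad targets. *Id1* had 192, 221 and 147 TPM in control against 258, 357 and 218 TPM in cKO libraries, so that cKO library 3 lay just below control library 2 (exact permutation p = 0.2). The means were 187 ± 37.4 and 278 ± 71.5 TPM (SD, n = 3), a log2 fold change of 0.56 (SE 0.24, 95% interval 0.01 to 1.11, limma p = 0.0477, exact permutation p = 0.2, adjusted p = 1.00). With 1 library left out the log2 fold change lay between 0.37 (without cKO library 2) and 0.72 (without cKO library 3). The unadjusted p was 0.153 without cKO library 2, 0.138 without control library 3, 0.0853 without cKO library 1 and 0.0854 without control library 1, and 0.0234 without cKO library 3 and 0.0304 without control library 2. It was 0.0595 after the length and GC correction, 0.0726 after quantile normalization, 0.0356 after rescaling without *Amelx* and *Ambn* and 0.00691 after median-ratio scaling.

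*Id3* had 148, 144 and 121 TPM in control against 187, 285 and 147 TPM in cKO libraries, with cKO library 3 within the control range (log2 fold change 0.53, limma p = 0.0701, exact permutation p = 0.2). *Id2*, named after its values were seen, had 91.5, 104 and 52.9 TPM and 113, 187 and 82.8 TPM (log2 fold change 0.59, limma p = 0.141, exact permutation p = 0.4). In each of these 3 genes cKO library 2 was the highest library, as it was for *Nog*. *Id4*, the remaining *Id* gene on the target list and also named after its values were seen, did not share the rise. It had 75.24, 86.27 and 54.37 TPM in control against 67.21, 73.35 and 64.69 TPM in cKO libraries (log2 fold change -0.05, limma p = 0.814, exact permutation p = 0.7). With the replicate number as a block in the limma fit, the unadjusted p was 0.00553 for *Id1*, 0.00801 for *Id2* and 0.023 for *Id3* (adjusted p = 0.507 for each). For *Id4* the unadjusted p with the block was 0.770. *Msx2*, a homeobox target of BMP4 in the tooth, had 83.6, 95.5 and 105 TPM in control against 80.5, 103 and 110 TPM in cKO libraries (log2 fold change 0.04, 95% interval -0.38 to 0.46, limma p = 0.826, exact permutation p = 0.8). The 6 bone markers summed to 741 to 1103 TPM in control against 1115 to 1398 TPM in cKO libraries without overlap (exact permutation p = 0.1). Of these markers, 4 had a log2 fold change above 0 and 2 below. Only *Bglap*, at 392 to 618 TPM against 686 to 1089 TPM, had no overlap between groups. *Alpl*, the next highest, had 213 to 348 TPM against 181 to 299 TPM. The part of the bone markers in the *Id* values was not tested.

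**Figure D5:**
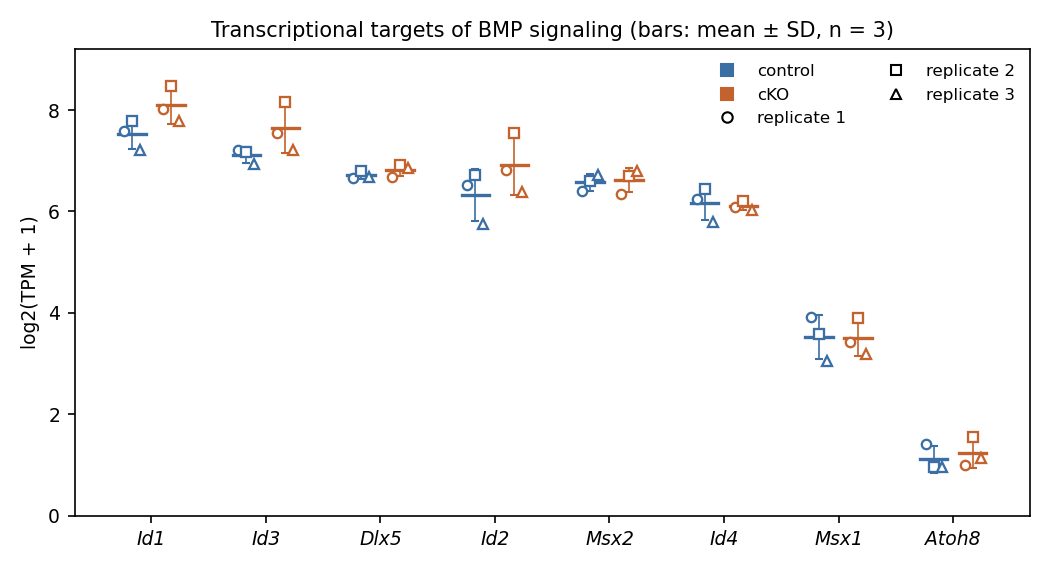
Level of 8 transcriptional targets of BMP signaling as log2(TPM + 1) by library (control blue, cKO orange, bars mean ± SD, n = 3). The *Id1*, *Id2* and *Id3* means are higher in cKO than in control with cKO library 2 (square) on top. The groups overlap for every gene, and *Id4* and *Msx2* each have nearly the same mean in both.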

How the data were processed

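The sequenced RNA was extracted with TRIzol from dental epithelium of 6 pools, 3 for each genotype, prepared with a TruSeq kit and sequenced on an Illumina NovaSeq instrument. By the study's methods, the authors used SeqPrep and Sickle for trimming, HISAT2 for alignment and RSEM for quantification; the submitters' processing notes name HISAT2 and StringTie. The genome build and annotation are not given in the sources used here. The values the authors deposited are TPM, 1 for each gene and library, and the library sums of 983952 to 993946 are those of TPM although the methods name FPKM. Gene abundances estimated this way depend on the annotated transcript length.

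The 13719 of 55487 genes whose mean reached 1 TPM were tested on log2(TPM + 1) with limma 3.58.1 in R 4.3.3 (lmFit, eBayes with a mean-variance trend, no block), with Benjamini-Hochberg adjustment over all of them. Sums and ratios per library were compared by exact two-sided permutation tests with SciPy 1.17.1. Groups and replicate numbers come from the sample titles. Positions, transcript lengths and GC content are those of GENCODE on GRCm38, which holds 99.53% of the gene identifiers, while the length and GC correction used natural splines with 4 degrees of freedom over 13707 genes. Promoter windows are from RefSeq on GRCm38.p6. Exons of *Bmp4*, *Bmp5*, *Bmp6*, *Bmpr1a* and *Fst* overlap a gene on the opposite strand, which apart from *Txndc5* had at most 1.81 TPM in any library.

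The 10 members were taken by gene name and not by their values. They and the lists of pathway and marker genes were nonetheless chosen with earlier results of these data known. Named besides the members are *Wnt10a* and, of each group of the wider list, the 2 genes with the highest mean, those that met the study's criteria or had no overlap, and *Sostdc1*, *Id1* and *Msx2*. Alternatives were a pseudocount of 0.1, no filter, no trend, Student's test, quantile and median-ratio scaling, rescaling without *Amelx* and *Ambn*, the length and GC correction, the replicate block with and without it, and leaving out each library. The rescaling without *Amelx* and *Ambn* also left out every gene not annotated as protein-coding. The code was tested on simulated data. The number of libraries limits the precision.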

Additional observations from a re-analysis of the deposited data

How the results depend on the processing

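*Bmp4*, *Bmp7* and *Fst* kept their direction in all 16 alternative fits, *Bmp3* was below 0 in all of them but at -0.00 without control library 1, and no member had an adjusted p below 0.05 in any of them (lowest 0.536). In all 16, *Wnt10a* was lower in cKO at an unadjusted p below 0.05. Leaving out 1 library at a time gave log2 fold changes of -0.15 to 0.28 for *Bmp2*, -0.25 to 0.30 for *Bmp5*, -0.62 to 0.070 for *Bmpr1a*, -0.20 to 0.29 for *Nog*, -0.72 to -0.00 for *Bmp3*, -0.33 to -0.13 for *Bmp4*, -0.55 to -0.15 for *Bmp7* and -0.29 to -0.16 for *Fst*. The reversals came for *Bmp2* without cKO library 2 (-0.06) or control library 3 (-0.15), for *Bmp5* without cKO library 2 (-0.04) or control library 3 (-0.25), for *Bmpr1a* without cKO library 3 (0.062) or control library 2 (0.070) and for *Nog* without cKO library 2 (-0.20). The log2 difference of the antagonist sum, -0.00 as reported, was 0.027 after median-ratio scaling and ranged from -0.23 to 0.14 with 1 library left out, being above 0 without control library 1 (0.070), control library 3 (0.024), cKO library 1 (0.067) or cKO library 3 (0.14). The log2 difference of the ligand sum, -0.23 as reported, was -0.28 after rescaling without *Amelx* and *Ambn*, -0.14 after median-ratio scaling and -0.32 to -0.18 with 1 library left out. The group difference in the log2 ratio of ligands to antagonists ranged from -0.38 to 0.054, the last without cKO library 2. With *Sostdc1* added to the antagonists this difference was -0.31 (exact permutation p = 0.3). Members under the study's criteria numbered 0 to 1 and members without overlap 0 to 3 with 1 library left out, where 13.5% to 27.6% of all tested genes had no overlap. These fits rest on fewer libraries, and a group of 2 is assumed to vary like the other. 

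The wider list had 2 genes under the criteria as reported, 1 by Student's test on the TPM, 1 without the filter on low values, 1 without the mean-variance trend, 4 after median-ratio scaling, 4 after rescaling without *Amelx* and *Ambn*, and 0 to 9 with 1 library left out. The causes were not tested. With the replicate number as a block it was 9 (3 higher, 6 lower), and 6 with the block and the length and GC correction. Same-numbered control and cKO libraries had correlations of their deviations from the group means of -0.08, 0.29 and 0.40. For cKO libraries 2 and 3 the same-numbered control library was the best match, but cKO library 1 correlated best with control library 2 (0.18). The design text of the series and the study's methods speak of pairs without saying what pairs them. The numbers were therefore not taken to pair the libraries in the main fit, and whether they do is not settled here. The block raised the genes called under the criteria from 552 to 1315, and 0 members were called with it. Unadjusted limma p with the block, not from an exact test, were 0.00553 for *Id1*, 0.00801 for *Id2*, 0.023 for *Id3*, 0.0058 for *Acvrl1* and 0.0216 for *Inhbb* (adjusted p = 0.507 for each). For *Id4* this p was 0.770. By Student's test on the TPM 0 members were called as well. Over all genes these calls numbered 459 by Student's test, 940 without the filter, 521 without the trend, 611 after median-ratio scaling and 755 after rescaling without *Amelx* and *Ambn*. They numbered 1110 with the block and the length and GC correction, and 195 to 1152 with 1 library left out. Adjusted p below 0.05 was reached by 0 to 9 genes. The alternatives planned for count tables were not run, since the table holds TPM. Depth is unknown, which leaves the values of *Bmp6* and *Bmpr1b* without a counting error, and with 3 libraries a group the intervals of all tested members but *Bmp4* and *Fst* span more than a log2 unit.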
